A study of Mus musculus with 247 samples.

Results

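The 8 genes described here code for transcription factors of the macrophage lineage: Spi1 (the protein PU.1), Runx1, Runx2, Runx3, Maf (c-MAF), Ets2, Fli1 and Bhlhe40. They were taken by symbol from an RNA-seq table of 14378 genes, and every one of the 8 was found there. The regions annotated to the same symbols were taken from tables of accessible chromatin (ATAC-seq, 149 of 73206 regions) and of chromatin immunoprecipitation (ChIP-seq) for PU.1 (138 of 52093 sites), JunB (167 of 58888), MED1 (75 of 26718) and RNA polymerase II, below Pol2 (43 of 23360). The cells were RAW264.7, a mouse macrophage line derived from a BALB/c tumour, in which GPS2, a subunit of the NCoR/SMRT corepressor complex, had been knocked out with CRISPR. Of 247 samples in the series, 46 had values in these tables.

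Poly(A) RNA-seq covered 4 groups of 4 libraries: wild-type cells (WT) and GPS2 knockout cells (KO), each untreated or after 6 h of LPS, the bacterial lipopolysaccharide that activates macrophages through TLR4, at 10 ng/ml. ATAC-seq compared 3 libraries of untreated KO cells with 3 of a CRISPR control, labelled as a knockout control rather than as WT and seeded in triplicate wells. ChIP-seq for PU.1 and JunB covered WT and KO cells, untreated and after 2 h of LPS, with 2 libraries per group, and ChIP-seq for MED1 and Pol2 covered WT and KO cells after 2 h of LPS, with 2 libraries per group. The LPS dose of the ChIP-seq, the number of knockout clones, and whether RNA and ChIP replicates came from separate cultures are not given in the sources used here, so the p-values measure the spread between these libraries, which may be technical. Every result in KO cells is therefore a result in this knockout population of 1 cell line.

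PU.1 is an ETS-family factor that binds purine-rich DNA with a GGAA core and opens chromatin at macrophage enhancers, and myeloid cells depend on its dose. ETS2 and FLI1 share the ETS DNA-binding domain, while RUNX factors bind DNA as dimers with CBFB and RUNX1 acts upstream of Spi1 in blood formation. c-MAF is a leucine-zipper factor of differentiated macrophages, known for control of Il10. BHLHE40 is a basic helix-loop-helix repressor of clock and cytokine genes. JunB is an AP-1 subunit induced by LPS, and MED1 is a Mediator subunit that marks active enhancers and promoters.

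The DNA of the sites on which the results below turn is given first. The windows are the central 200 bases of sites in genome build mm9, plus strand, 5′ to 3′. Capitals mark the PU box GAGGAA, which appears as TTCCTC where it lies on the minus strand, the AP-1 site TGANTCA (N is any base, and the motif is its own reverse complement) and the RUNX site TGTGGT, searched on both strands. These motifs do not overlap one another in the windows shown. The first window, chr2:90924782-90924981, is the tallest PU.1 site of Spi1, 12.0 kb upstream of its start. It is shown because PU.1 at its own gene was not called different between the genotypes there under either scaling.
Spi1 -12.0 kb: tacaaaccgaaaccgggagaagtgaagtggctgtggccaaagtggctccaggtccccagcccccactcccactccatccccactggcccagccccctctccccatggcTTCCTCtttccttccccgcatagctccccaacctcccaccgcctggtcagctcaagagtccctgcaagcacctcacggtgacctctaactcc
The next windows are 3 sites of Maf where PU.1, relative to the typical site, was higher in KO cells: chr8:118289004-118289203, chr8:118266503-118266702 and chr8:117922042-117922241, the first pair with LPS and the last one untreated. The first had no PU box and one AP-1 site, the second had adjoining PU boxes and an AP-1 site, and the third had a PU box alone.
Maf -58.3 kb: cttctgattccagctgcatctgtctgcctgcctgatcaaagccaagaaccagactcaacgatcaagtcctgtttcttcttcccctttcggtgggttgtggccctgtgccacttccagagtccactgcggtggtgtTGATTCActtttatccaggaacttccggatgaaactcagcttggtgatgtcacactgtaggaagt
Maf -35.8 kb: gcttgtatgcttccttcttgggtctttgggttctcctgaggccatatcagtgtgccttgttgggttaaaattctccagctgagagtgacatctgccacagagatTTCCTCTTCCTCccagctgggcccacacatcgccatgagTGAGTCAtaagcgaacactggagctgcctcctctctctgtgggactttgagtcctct
Maf +308.7 kb: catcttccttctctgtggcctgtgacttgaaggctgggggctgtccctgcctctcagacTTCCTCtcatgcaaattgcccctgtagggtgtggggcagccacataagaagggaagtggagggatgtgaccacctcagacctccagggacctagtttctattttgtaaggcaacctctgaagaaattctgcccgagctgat
JunB was lower in KO cells with LPS at the next 3 windows, chr16:92740344-92740543 and chr16:92654193-92654392 in introns of Runx1 and chr9:32328858-32329057 in intron 1 of Fli1. The first held an AP-1 site, the second an AP-1 site, a RUNX site and a PU box, and the third none of the 3 motifs. The first of these was chosen after its values were seen.
Runx1 -42.9 kb: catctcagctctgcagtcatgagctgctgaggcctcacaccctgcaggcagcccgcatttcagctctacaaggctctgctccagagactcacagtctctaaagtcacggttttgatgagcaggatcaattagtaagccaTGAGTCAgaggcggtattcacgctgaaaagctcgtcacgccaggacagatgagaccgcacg
Runx1 +43.3 kb: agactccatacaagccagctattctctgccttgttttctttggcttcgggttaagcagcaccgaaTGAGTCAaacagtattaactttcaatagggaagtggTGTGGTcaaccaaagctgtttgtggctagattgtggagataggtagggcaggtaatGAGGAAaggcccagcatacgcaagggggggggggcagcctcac
Fli1 +20.1 kb: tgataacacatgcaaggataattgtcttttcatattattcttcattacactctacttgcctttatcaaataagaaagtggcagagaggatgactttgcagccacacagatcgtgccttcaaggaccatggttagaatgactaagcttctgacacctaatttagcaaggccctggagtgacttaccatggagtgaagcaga
The last window, chr17:44738740-44738939, lies at the 3′ end of Runx2, where PU.1, JunB and MED1 were all higher in KO cells with LPS on the same scale, and it held a PU box.
Runx2 +134.3 kb: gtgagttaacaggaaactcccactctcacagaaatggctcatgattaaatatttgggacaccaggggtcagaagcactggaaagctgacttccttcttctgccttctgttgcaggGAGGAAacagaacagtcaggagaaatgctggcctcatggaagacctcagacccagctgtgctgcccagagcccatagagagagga

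Over windows of this length, the PU box was found in 61.2% of 52033 PU.1 sites and in 82 of the 138 member sites (59.4%). The AP-1 site was found in 52.4% of 58840 JunB sites and in 84 of the 167 member sites (50.3%). The RUNX site was found in 15.7% of PU.1 sites and 33 of the 138 member sites (23.9%), and in 19% of JunB sites and 42 of the 167 member sites (25.1%). A match is a stretch of letters and says nothing of binding. The sites of the different assays overlap in part: of the 138 PU.1 sites, 106 overlapped an ATAC region, 83 a JunB site, 72 a MED1 site and 47 a Pol2 region, by at least 1 base, and of the 75 MED1 sites 67 overlapped a JunB site.

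RNA libraries held 12094940 to 22968591 mapped reads and ChIP libraries 8096447 to 16006515, while the depth behind the ATAC values is unknown. Values of RNA are reads per 10000000 mapped reads, scaled between libraries by the trimmed mean of M values (TMM), and are called scaled reads. Gps2 itself read 415 to 459 in WT and 130 to 136 in KO cells without LPS, and 420 to 499 in WT and 76.7 to 98.6 in KO cells with LPS. The transcript was lower but present in the knockout libraries, and which exon was cut is not given in the sources used here. Defining macrophage markers were present (10 of 10 above the detection filter, summed 84750 to 94080 in WT and 125631 to 130700 in KO cells without LPS, 86908 to 109615 and 110929 to 117105 with LPS). Of 8 lymphocyte markers 2 were in the table, summed at most 1.93, and of 5 fibroblast or epithelial markers 1, at most 1.09. Of 6 granulocyte markers 1, S100a8, was in the table, at 0 to 0.544 in WT and 2.56 to 6.68 in KO cells without LPS, and 3.56 to 18.6 and 15.0 to 20.1 with LPS. Of 4 dendritic-cell markers 2 were there, summed 11.8 to 15.7 in WT and 8.35 to 11.6 in KO cells without LPS, and 181 to 275 and 79.3 to 97.1 with LPS. Replicate 4 of WT with LPS stood apart: its counts differed from the other 3 by a chi-square of 94.1 to 131 per gene, against 1.23 to 9.24 in the 21 other replicate pairs. Some results that rest on it are given with and without it, and the others with it only.

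Read per kilobase of transcript, which allows genes to be compared, Spi1 was the highest of the 8 in each group, at 2228 scaled reads per kb in WT cells and 4176 after LPS. In untreated WT cells Ets2 (358) and Fli1 (220) followed, Bhlhe40 (108) and Runx1 (104) overlapped between libraries, and Maf (4.05), Runx3 (3.04) and Runx2 (1.5) were lowest, also overlapping. In untreated KO cells all 8 were separated from their neighbours over the libraries, in the order Spi1 (1435), Ets2 (891), Fli1 (263), Bhlhe40 (128), Runx1 (80.1), Maf (19.1), Runx2 (7.63) and Runx3 (0.126). LPS placed Maf second in WT cells, at 1278 per kb, ahead of Ets2 at 901. In KO cells with LPS Ets2, at 2114 per kb, lay above Maf at 730. Runx2 (0.653) and Runx3 (0.286) overlapped there at the bottom.

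**Figure D1:**
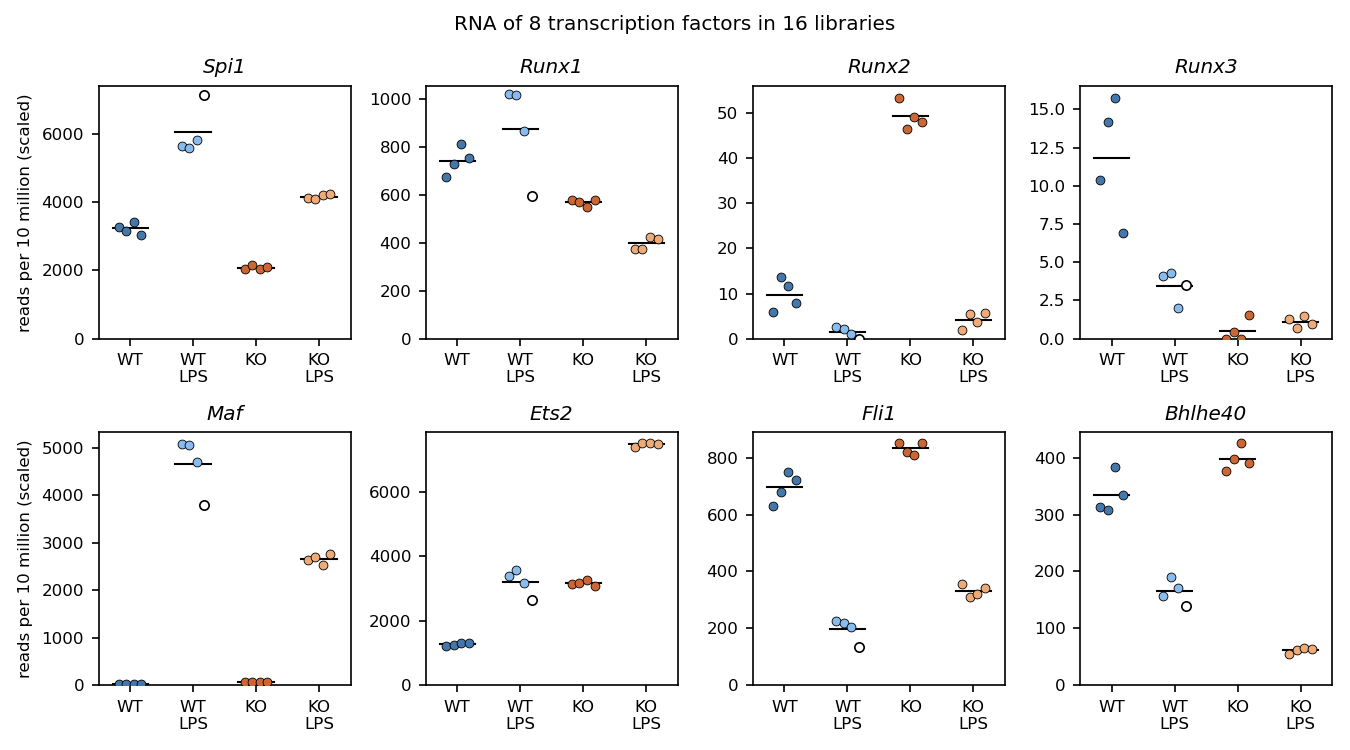
RNA level of each of the 8 genes in every library, in scaled reads per 10000000 mapped reads on a linear axis from 0; points are libraries (4 per group), lines are group means, and the open circle is WT LPS replicate 4. Maf rises from 13.6 to 15.7 in untreated WT libraries to 3795 or more with LPS, and all KO LPS libraries of Ets2 lie at 7402 or above.

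Of the 6 genes that were above the filter on low values in every group (Spi1, Runx1, Maf, Ets2, Fli1 and Bhlhe40), 4 passed the test between KO and WT cells without LPS (limma, adjusted p under 0.05 over 11774 genes), 2 higher and 2 lower. Of all genes 35.5% passed (18.3% higher and 17.2% lower). With LPS 6 passed, 2 higher and 4 lower, against 44.3% of all genes (22.2% higher and 22.2% lower). The LPS response passed for 5 of the 6 in WT cells (3 higher, 2 lower, against 70.4% of genes) and for 6 in KO cells (3 and 3, against 67.5%). The difference between these responses passed for 4 (1 higher, 3 lower, against 20.7%). Runx2 reached the filter through the untreated groups of both genotypes and Runx3 only through untreated WT cells. With LPS neither reached it: Runx2 had 10 reads over the 4 WT and 22 over the 4 KO libraries, and Runx3 22 and 6. Runx2 and Runx3 changes are given below and stand in none of these counts. In these bulk libraries, fewer cells with a transcript and less of it per cell cannot be told apart. The comparisons share groups: untreated WT libraries serve both the genotype and the LPS comparison, and so on for each group, so they are not independent. Log2 changes are on the scale of log2(scaled reads + 1), with 1 standard error (SE) per gene shared by the comparisons between 2 groups.

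Spi1 was lower in KO cells in both states and rose with LPS in both genotypes. Untreated WT libraries read 3279, 3162, 3424 and 3038 scaled reads for replicates 1 to 4, and untreated KO libraries 2032, 2151, 2030 and 2096. With LPS, WT libraries read 5638, 5579, 5824 and 7146, and KO libraries 4121, 4077, 4206 and 4240. Neither pair of genotype groups overlapped, and the highest WT value was that of replicate 4. Spi1 fell by 0.63 on the log2 scale in untreated KO cells (SE 0.0698, limma adjusted p = 2.78e-06, 1.55-fold lower) and by 0.53 with LPS (adjusted p = 1.64e-05). The rise with LPS was 0.90 in WT (adjusted p = 8.59e-09) and 1.00 in KO cells (adjusted p = 2.66e-09). The difference of those responses was 0.10 (SE 0.0987, limma adjusted p = 0.531), with a 95% interval of -0.09 to 0.30. Without WT LPS replicate 4 it was 0.18 with an adjusted p of 0.0062 in limma.

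Ets2, an ETS factor phosphorylated by MAP kinases downstream of CSF1 and LPS, was higher in KO cells by a similar factor with and without LPS. Its values were 1215, 1242, 1313 and 1302 in untreated WT libraries and 3130, 3171, 3257 and 3077 in untreated KO libraries. With LPS they were 3391, 3586, 3161 and 2637 in WT against 7402, 7540, 7518 and 7504 in KO cells. Untreated KO cells thus reached the range of WT cells with LPS (2637 to 3586), and the genotypes overlapped in neither state. The log2 change was 1.32 without LPS (SE 0.0736, adjusted p = 9.39e-10 by limma) and 1.24 with LPS (adjusted p = 2.39e-09). LPS raised it by 1.32 in WT (adjusted p = 1.34e-10) and 1.25 in KO cells (adjusted p = 3.49e-10). The responses differed by -0.08 (SE 0.104, limma adjusted p = 0.659, 95% interval -0.28 to 0.13). With library totals in place of TMM this difference was 0.0027, and without WT LPS replicate 4 it was -0.17 with an adjusted p of 0.016.

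Fli1, which is related to ERG and active in early blood and megakaryocyte cells, fell with LPS, less so in KO cells. Untreated libraries read 632, 681, 750 and 723 in WT against 850, 821, 810 and 853 in KO cells. With LPS the values were 226, 219, 206 and 135 in WT against 356, 310, 320 and 341 in KO cells. KO libraries lay above all WT libraries in both states. The untreated log2 difference of 0.26 missed the threshold (SE 0.124, adjusted p = 0.117, limma), whereas without WT LPS replicate 4 the same value had an adjusted p of 0.00021. With LPS Fli1 was higher in KO cells by 0.78 (adjusted p = 0.000116, limma, 1.72-fold). This change was 0.61 to 0.85 over 25 alternative settings, with the call in 25. The WT mean with LPS was 197, and 217 without replicate 4. LPS lowered it, with log2 changes of -1.85 in WT (adjusted p = 1.59e-09) and -1.33 in KO cells (adjusted p = 1.05e-07). The responses differed by 0.52 (SE 0.175, adjusted p = 0.0481), a call held in 9 of 24 alternative settings (0.35 to 0.60, adjusted p 0.000883 to 0.0976).

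Maf showed the largest LPS response of the 8 genes, and the knockout changed it in opposite directions with and without LPS. Untreated libraries read 15.3, 13.6, 15.7 and 14.3 in WT against 72.9, 63.6, 70.9 and 70.1 in KO cells. With LPS, WT libraries read 5067, 5050, 4692 and 3795, and KO libraries 2641, 2693, 2531 and 2757. KO was above every WT library before LPS and below every one after it. The log2 change was 2.16 without LPS (SE 0.0852, adjusted p = 1.90e-11, limma, 4.47-fold) and -0.80 with LPS (adjusted p = 1.90e-06, 1.74-fold lower). LPS raised Maf by 8.20 in WT (adjusted p = 2.67e-19, 294-fold) and by 5.24 in KO cells (adjusted p = 3.28e-17, 37.8-fold). The responses differed by -2.96 (SE 0.121, limma adjusted p = 1.33e-10), a call that held in 24 of 24 alternative settings.

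Runx1, the RUNX factor of definitive blood formation, was lower in KO cells, more so with LPS. Untreated WT libraries read 674, 731, 812 and 756 scaled reads, and untreated KO libraries 580, 572, 549 and 578. With LPS, WT libraries read 1023, 1017, 866 and 594 and KO libraries 376, 376, 424 and 416. The genotypes did not overlap in either state, and the lowest WT value with LPS, 594, was that of replicate 4. Runx1 fell by 0.38 in untreated KO cells (SE 0.131, adjusted p = 0.0339, limma) and by 1.1 with LPS (adjusted p = 6.09e-06, 2.15-fold lower). The untreated call held in 17 of 25 alternative settings, and the call with LPS in 25 (-1.3 to -1.02). With LPS Runx1 fell by 0.52 in KO cells (adjusted p = 0.00244), whereas in WT cells the log2 difference was 0.21 (adjusted p = 0.171, limma), or 0.38 without replicate 4 (adjusted p = 6.9e-06) and -0.26 with library totals. The responses differed by -0.72 (SE 0.185, limma adjusted p = 0.0104), and this call held in 24 of 24 alternatives.

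Runx2, known from bone formation, was low throughout and highest in untreated KO cells. It read 5.92, 13.6, 11.6 and 7.79 in untreated WT libraries and 53.4, 46.6, 49.2 and 48.1 in untreated KO libraries. With LPS it read 2.54, 2.14, 0.985 and 0 in WT against 1.95, 5.44, 3.76 and 5.73 in KO cells, so that the genotypes separated only before LPS. Runx2 was higher by 2.29 in untreated KO cells (SE 0.367, adjusted p = 0.000147, limma, 4.89-fold). The log2 change with LPS was 1.2, with overlapping groups. Neither genotype reached the filter on low values with LPS, so no p-value is given for it. For LPS against untreated the log2 change was -2.25 in WT and -3.34 in KO cells. Since Runx2 reached the filter only through the untreated groups, where it was higher, no p-value is given for these changes. The difference of the responses was -1.09 (SE 0.519, limma adjusted p = 0.167, 95% interval -2.11 to -0.07), and without WT LPS replicate 4 it was -1.46 with an adjusted p of 0.0048.

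Runx3, a RUNX factor best known from lymphocytes and dendritic cells, was nearly undetected in KO cells. Untreated WT libraries read 10.4, 14.2, 15.7 and 6.92, while untreated KO libraries read 0, 0.416, 0 and 1.54, or 4 reads in the 4 libraries together. With LPS, WT libraries read 4.07, 4.27, 1.97 and 3.54 and KO libraries 1.30, 0.681, 1.5 and 0.956. KO lay below WT in both states without overlap. The ratio of summed reads, KO to WT without LPS, was 0.0413 with an exact binomial 95% counting interval of 0.0110 to 0.109. On the log2 scale the change was -3.16 (SE 0.325), and -1.06 with LPS. Since Runx3 reached the filter only through untreated WT cells, where it was highest, no p-value is given for it. The log2 change with LPS was -1.5 in WT cells and 0.60 in KO cells. The responses differed by 2.10 (SE 0.459), at levels in KO cells where a few reads make the value.

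Bhlhe40 fell with LPS in both genotypes, and further in KO cells. Untreated libraries read 313, 308, 384 and 335 in WT against 377, 398, 426 and 391 in KO cells. With LPS they read 158, 191, 171 and 140 in WT against 54.6, 61.2, 65.5 and 64.0 in KO cells. The genotypes overlapped before LPS and were separate after it. The untreated log2 difference was 0.25 (SE 0.0975, adjusted p = 0.0552, limma), or 0.25 with an adjusted p of 0.0064 without WT LPS replicate 4. With LPS Bhlhe40 was 2.65-fold lower in KO cells, a log2 change of -1.41 (adjusted p = 1.56e-08). LPS lowered it, with log2 changes of -1.02 in WT (adjusted p = 1.21e-07) and -2.68 in KO cells (adjusted p = 8.64e-13). The responses differed by -1.66 (SE 0.138, adjusted p = 3.79e-07, limma).

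With library totals in place of TMM, the median gene moved by -0.46 for LPS in WT and by -0.38 for LPS in KO cells, so every LPS change above is relative to that of the typical gene. The calls over all genes then moved from 34.5% higher and 35.96% lower to 16.9% and 59.6% in WT, and from 31.5% and 36.04% to 16.95% and 57.3% in KO cells. For KO against WT without LPS they moved from 18.3% and 17.2% to 13.3% and 23.7%. The authors' deposited table gave the same sign for the 24 member changes it shares with the comparisons above. In size the log2 changes differed by up to 1.58.

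**Figure D2:**
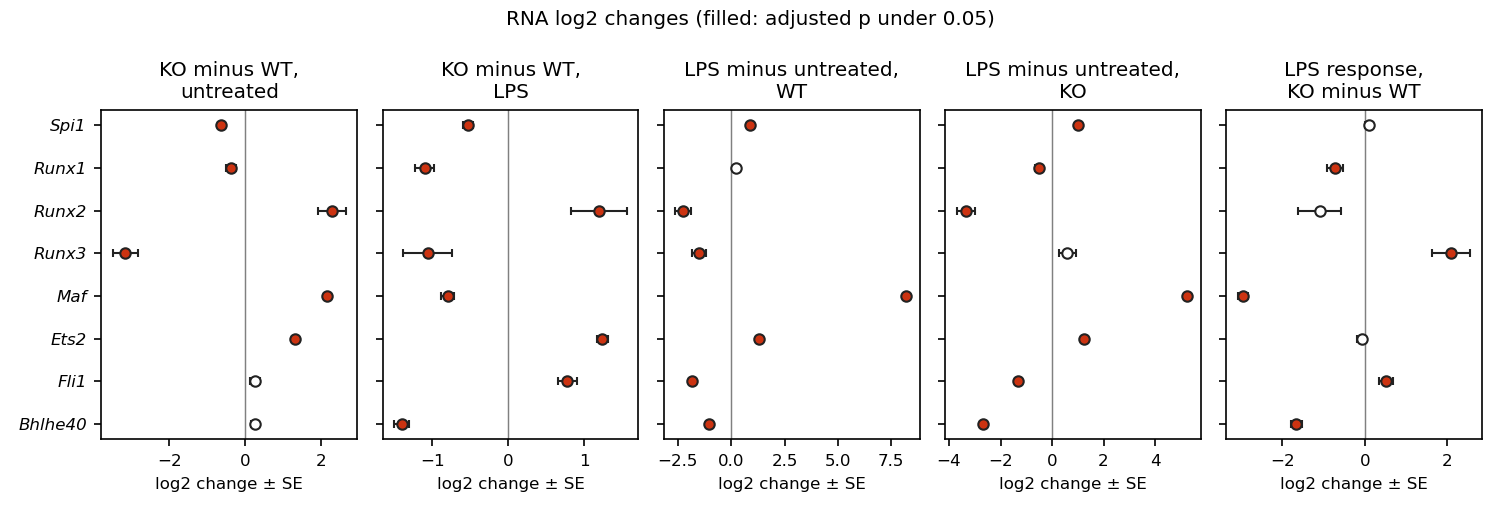
Log2 change of each gene's RNA in the 5 comparisons, with bars of 1 SE; filled red points have an adjusted p under 0.05 (limma). Maf lies at 2.16 without LPS and at -0.80 with LPS for KO against WT, and its difference of LPS responses, -2.96, is the lowest of the 8. Runx3 reached the filter only through untreated WT cells, so its filled points are no test of a change. Runx2 reached it only through untreated cells, so its filled points in comparisons that include LPS are no test either.

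The other genes of these families, from lists chosen with earlier results of these data known, are given by their counts, to be read against 18.3% of all genes higher and 17.2% lower in untreated KO cells, and 22.2% and 22.2% with LPS. Of 11 other ETS genes above the filter, 2 passed the test in untreated KO cells, both lower (median log2 change -0.12, against 0.01 over all genes), and 2 were higher and 3 lower with LPS (median -0.16, against -0.00017). Erf, an ETS repressor, fell in KO cells from 582 ± 59.6 to 140 ± 26.2 scaled reads (SD, n = 4; log2 change -2.06, adjusted p = 3.32e-08, limma). Elk3 fell without LPS (-0.69, adjusted p = 8.63e-07, limma) and rose with it (0.65, adjusted p = 1.63e-06). Of 7 RUNX partners and corepressors, 4 passed without LPS and 3 with LPS, each of them lower in KO cells (medians -0.19 and 0.05). The partner Cbfb fell by 0.38 and 0.16 on the log2 scale (limma adjusted p = 1.27e-05 and 0.0133), and the Groucho-type corepressor Tle3 fell by 1.04 with LPS (adjusted p = 1.30e-07).

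Of 9 relatives of Bhlhe40 and clock genes, 1 was higher and 3 lower without LPS, and 1 and 2 with LPS, against the same shares of all genes. Bhlhe41, the closest relative of Bhlhe40, rose in KO cells from 564 ± 35 to 1671 ± 55.6 without LPS (SD, n = 4; log2 change 1.57, adjusted p = 1.59e-11, limma) and from 43.8 ± 2.88 to 149 ± 2.42 with LPS (1.75, adjusted p = 6.89e-12), where Bhlhe40 fell.

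Of 19 other haematopoietic factors, 6 were higher and 9 lower in untreated KO cells, and 9 and 8 with LPS (all genes: 18.3% and 17.2%, then 22.2% and 22.2%). Gfi1, a zinc-finger repressor that opposes PU.1 in myeloid cells, rose without LPS from 4.81 ± 2.18 to 59.6 ± 2.87 (SD, n = 4; log2 change 3.47). Its WT means without and with LPS (2.29) lay under the filter on low values. Gfi1 thus reached the filter through KO cells, where it was high, so no p-value is given for it. The counts above include it. Cebpa (-1.32, adjusted p = 2.90e-09, limma) and Nr4a1 (-2.57, adjusted p = 9.42e-09) fell without LPS. With LPS Klf4 fell by 3.61 (adjusted p = 7.69e-09, limma) and the HLH inhibitor Id2 rose by 1.98 (adjusted p = 5.89e-09). Of 24 genes known as PU.1 targets in macrophages, 16 were higher and 1 lower in untreated KO cells (median 0.53), where Spi1 was lower, and 11 and 6 with LPS (median 0.17), against the same shares of all genes. The Fc receptor genes Fcgr2b (from 70.7 ± 6.48 to 535 ± 25 scaled reads; 2.90, adjusted p = 1.59e-11, limma) and Fcgr3 (1.41, adjusted p = 1.08e-09) and the G-CSF receptor gene Csf3r (2.44, adjusted p = 8.09e-10) rose without LPS. With LPS Csf1r, the M-CSF receptor gene, was 11436 ± 185 in KO and 4436 ± 889 in WT cells (SD, n = 4; 1.39, adjusted p = 6.00e-08, limma). Of the osteoclast markers in the table, 5 in all, 4 rose and 1 fell without LPS, with summed levels of 325 to 354 in WT and 627 to 697 in KO libraries. With LPS 3 of the 5 were higher and 2 lower in KO cells. Without LPS macrophage markers moved the same way as the PU.1 targets (6 of 10 passed, each of them higher). With LPS 6 of the 10 macrophage markers were higher and 2 lower, against the same shares of all genes. Of the 10, 7 stand in both lists. The part of the macrophage and osteoclast markers in these results was not tested. The granulocyte marker S100a8 was higher in KO cells, with log2 changes of 2.11 without LPS and 1.02 with LPS. Without LPS its means of 0.259 in WT and 4.52 in KO cells lay under the filter on low values. Only in KO cells with LPS, where S100a8 was highest, did every library pass that filter, so no p-value is given for it. The dendritic-cell marker Xcr1 fell by 1.18 with LPS (adjusted p = 4.50e-05, limma), and the part of these markers was not tested either.

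The genes whose log2 values ran most like each member over the 16 libraries were Farsa (r = 0.993) and Gsdmd (0.992) for Spi1, Bcar3 (0.995) and Flt1 (0.994) for Ets2, Gltp (0.997) and Ikbip (0.996) for Fli1, and Il1rn (0.998) and Bcl2l1 (0.996) for Maf. For Runx1 they were Eps8 (0.956) and Cyth1 (0.941), for Runx2 Nceh1 (0.979) and Kcnj2 (0.978), for Runx3 Pcdhgc3 (0.963) and Pcdhga9 (0.943), which share exons with other genes of their cluster, and for Bhlhe40 Eno2 (0.992) and Klhl24 (0.982). These Pearson correlations, over 11773 other genes, are descriptions: the libraries fall into 4 groups, which make most of each value.

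Accessibility differed at a minority of the regions, in both directions. Of 149 ATAC regions, 9 were higher and 11 lower in untreated KO cells (limma, adjusted p under 0.05), against 7.20% of all regions (4.04% higher, 3.16% lower), and the median of the member regions was 0.01. Leaving out 1 library at a time gave 8 to 15 calls in place of 20, the 8 without control replicate 3. The promoter regions of Spi1 (-0.14, adjusted p = 0.259, limma), Ets2 (0.12, adjusted p = 0.373) and Bhlhe40 (0.01, adjusted p = 0.958) missed the threshold. The values are the authors' log2 values.

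At the Maf promoter (chr8:118229847-118232266), control libraries read 5.79, 5.95 and 6.05 and KO libraries 5.53, 5.64 and 5.80, so that the groups overlapped only in the highest KO and the lowest control library. The change was -0.28 (SE 0.0820, adjusted p = 0.0194, limma), while untreated Maf RNA was higher in KO cells. This call was lost without a trend and without control replicate 2 or 3 or KO replicate 1 or 2, holding in 5 of 10 alternatives (-0.35 to -0.21, limma adjusted p 0.00683 to 0.177). The intergenic Maf regions with the largest falls lay at +56.5 kb (-0.45, adjusted p = 5.68e-06) and +212.3 kb (-0.44, adjusted p = 1.21e-05, chosen after its values were seen), distances being from the start with plus for downstream. The region at +308.5 kb was higher (0.20, adjusted p = 0.0467, a call held in 5 of 10 alternatives, with adjusted p up to 0.272 in limma, and lost without control replicate 1 or 2 or KO replicate 1 or 3), and it holds the PU.1 site with the PU box printed above.

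Runx1 has a distal and a proximal start, and its regions moved both ways. The region chr16:92740183-92741126, in the intron between the starts and 43.1 kb upstream of the proximal one, read 4.56, 4.45 and 4.46 in control and 4.12, 4.03 and 4.05 in KO libraries (-0.42, adjusted p = 2.96e-06, limma). The groups did not overlap there. By contrast, the region chr16:92867301-92869088, 41.9 kb upstream of the distal start, rose from 6.42, 6.64 and 6.62 to 7.21, 7.14 and 7.08 (0.58, adjusted p = 2.51e-10). At Runx2 3 of 23 regions passed, each higher, with the largest change at +17.7 kb (0.27, adjusted p = 0.0154, limma). At Ets2 3 of 13 passed, each higher, with the largest change at +79.5 kb (0.33, adjusted p = 0.00159). At Runx3 2 of 15 passed, both lower, with the larger change 0.9 kb downstream of an internal start (-0.17, adjusted p = 0.0276). The call at Runx2 held in 5 of 10 alternatives (lost without control replicate 1 or 2 or KO replicate 1 or 2, adjusted p up to 0.153 in limma). That at Ets2 held in 8 (lost without KO replicate 3, adjusted p up to 0.125), and that at Runx3 in 5 (lost without control replicate 1 or 3 or KO replicate 1 or 2, adjusted p up to 0.186).

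In the ChIP-seq, the libraries of a pair agreed within sampling noise (chi-square of 0.839 to 1.19 per site in 12 pairs), so each pair was counted as 1 sample and no test was made between the conditions. Where limma with precision weights on the recovered reads is named, it compares libraries and was added after seeing the data. It treats the 2 libraries of a pair as replicates, so its counts are a description and no test between the conditions. A site was called where the ratio of the means differed by at least 1.5-fold and the exact binomial 95% interval of the ratio of summed reads left out 1. That interval, given in brackets as log2, covers counting error only. Values are scaled reads per 10000000 mapped reads, and the scaling sets the typical site to no change. The share of reads inside sites was lower in KO libraries for each factor, for PU.1 with LPS 11.7% in both libraries against 15.5% to 15.96%, for MED1 8.81% to 8.92% against 14.6% in both, and for Pol2 14.2% to 14.4% against 45.0% to 46.4%. With library totals in place of the scaling the median site moved by -0.40, -0.74 and -1.83 for these, by -0.54 for PU.1 without LPS, and by -0.25 and -0.14 for JunB without and with LPS. Changes below are relative to the typical site unless said otherwise, and which scaling is nearer to the cells was not tested.

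PU.1 occupancy at its own gene was not called different between the genotypes at any of the 4 Spi1 sites, relative to the typical site. By library totals 1 of the 4, at the start itself, was lower without LPS (-0.98). At the tallest, 12.0 kb upstream of the start (chr2:90924737-90925026), WT pairs read 70.1 and 55.2 untreated and 53.3 and 75.2 with LPS, and KO pairs 82.1 and 48.5 untreated and 54.1 and 68.1 with LPS. The libraries of both genotypes overlapped in each state, and the log2 ratio with LPS was -0.07 [-0.51 to 0.32], or -0.48 by library totals.

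Over the 138 PU.1 sites of the 8 genes, 4 were higher and 8 lower in untreated KO cells (12.3% of all sites called, 5.44% higher and 6.89% lower). With LPS 10 were higher and 9 lower (17.2%, 9.79% and 7.36%). Limma with precision weights called 12 of the 138 without LPS (7.96% of all sites) and 9 with LPS (8.66%). By library totals the 1.5-fold counts were 0 and 59 without LPS (0.504% and 39.8% of all sites) and 3 and 35 with LPS (3.16% and 27.4%). Without replicate 1 or 2 of each group, 17 and 7 of the 138 were called untreated, in place of 12, and 9 and 8 with LPS, in place of 19. The 10 higher sites lay in Maf (6), Runx1 (2), Runx2 (1) and Runx3 (1), and the 9 lower ones in Runx1 (5), Runx3 (2), Fli1 (1) and Runx2 (1). With LPS against untreated, 20 sites were higher and 9 lower in WT cells (20.2% of all sites, 10.4% and 9.85%), and 32 were higher and 8 lower in KO cells (24.9%, 14.3% and 10.6%), 25 in all without replicate 1. By library totals the LPS counts were 2 and 71 in WT cells and 6 and 45 in KO cells. The share of reads in PU.1 sites was 24.8% to 25.2% in untreated WT libraries and 15.5% to 15.96% with LPS.

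Maf held most of the PU.1 sites that were higher in KO cells with LPS. Its 37 PU.1 sites, 26 of them more than 100 kb from the start and the farthest 437.1 kb, had a median log2 ratio of 0.34 for KO against WT with LPS, 6 higher and 0 lower, where the median of all sites was -0.00. By library totals 2 of the 37 were higher and 5 lower. Without LPS the median was -0.11, with 1 higher and 2 lower. With LPS against untreated, PU.1 was higher at 15 Maf sites and lower at 0 in KO cells, and higher at 7 and lower at 2 in WT cells. Assignment to Maf is by the authors' annotation of the nearest start, and some of the far sites lie in introns of the transcript NM_019573.

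The site at -58.3 kb of Maf (chr8:118288938-118289268), whose window has an AP-1 site and no PU box, read 9.70 and 8.47 in WT against 34.7 and 33.4 in KO cells with LPS. Without LPS it read 10.5 and 12.9 in WT against 7.37 and 9.70 in KO cells. Only the KO pair with LPS stood out, with a log2 ratio of 1.80 [1.07 to 2.83], or 1.39 by library totals. JunB at the same place (-58.4 kb) read 7.55 and 6.58 in WT against 19 and 15.7 in KO cells with LPS, a ratio of 1.19 [0.71 to 1.87]. MED1 at -58.3 kb read 3.12 and 5.41 in WT against 14.9 and 14.1 in KO cells (1.56 [0.69 to 2.93], or 0.88 and not called by library totals). That MED1 ratio rests on 4 and 7 reads in WT against 13 and 13 in KO cells, and the site passed the filter only through the KO pair. The MED1 sites of Maf at -58.3 and +308.8 kb and the JunB sites at -35.8 and +308.7 kb, here and next, were chosen after their values were seen.

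The site at -35.8 kb (chr8:118266455-118266749), with its adjoining PU boxes and AP-1 site, read 20.6 and 18 for PU.1 in WT against 27.8 and 40.3 in KO cells with LPS (0.79 [0.16 to 1.5], or 0.38 by library totals). JunB there read 29.2 and 31.3 in WT against 46.6 and 50.6 in KO cells (0.67 [0.40 to 0.99]). MED1 read 10.1 and 3.86 in WT against 27.4 and 25 in KO cells (1.77 [1.09 to 2.78], or 1.05 by library totals). For MED1 the KO pair reached the filter on low values there and the WT pair, with 13 and 5 reads, did not. Each KO library was above each WT library for all 3 factors. At +308.7 kb (chr8:117922002-117922281) PU.1 was higher already without LPS, with 39.97 and 42.4 in WT against 65.3 and 60.6 in KO cells (0.60 [0.23 to 1.01], or 0.05 by library totals). With LPS it was 90.9 and 78.4 in WT against 99.9 and 100.1 in KO cells, a ratio that was not called (0.24). JunB at that site was 24 and 17.8 in WT against 39.9 and 40.8 in KO cells with LPS (0.92 [0.60 to 1.28]), and MED1 16.4 and 16.2 in WT against 32 and 41.3 in KO cells (1.12).

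At Runx1, PU.1 was lower with LPS at 5 of 36 sites and higher at 2, with a median of -0.19. The site at -42.7 kb of the distal start, chosen after its values were seen, read 59.4 and 73.1 in WT against 48.5 and 34.8 in KO cells (-0.66), overlapping the region whose accessibility rose without LPS. At -18.7 kb of the proximal start the ratio was -0.83. At Runx2, the site at +134.3 kb (chr17:44738686-44738992, in an intron of NR_073425) read 34 and 28.6 in WT against 56.9 and 54.2 in KO cells with LPS (0.81 [0.32 to 1.36], or 0.40 by library totals). JunB at that place, a site chosen after its values were seen, read 17.5 and 16.6 in WT against 27.1 and 25.9 in KO cells (0.61 [0.23 to 1.03]). MED1 read 3.91 and 10.8 in WT against 20.6 and 18.5 in KO cells (1.30, or 0.59 by library totals). For MED1 the WT pair, with 5 and 14 reads, did not reach the filter on low values there. Relative to the typical site all 3 factors were higher there, at a gene with RNA of at most 5.73 scaled reads in either genotype with LPS. At the Fli1 start PU.1 read 39.97 and 36.3 in WT against 61.1 and 63.1 in KO cells without LPS (0.69, or 0.14 by library totals) and was not called with LPS (-0.23).

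**Figure D3:**
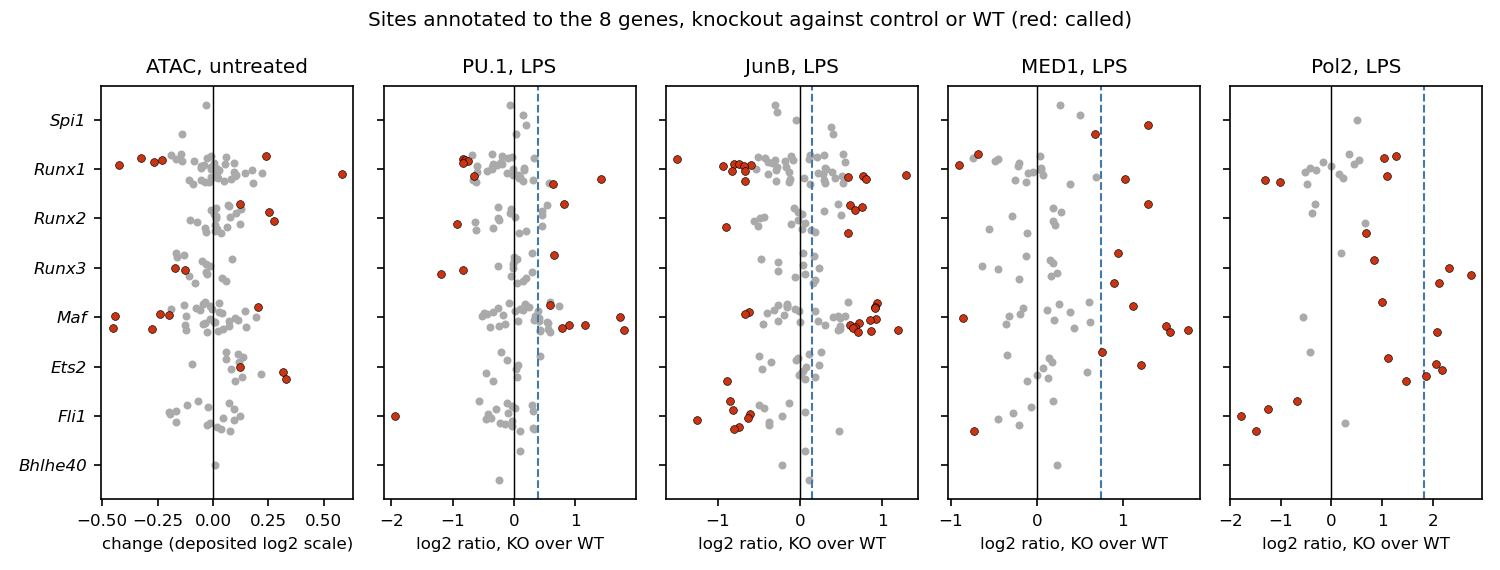
Log2 ratio of KO to control or WT at each site of the 8 genes, by gene, for ATAC (untreated) and for PU.1, JunB, MED1 and Pol2 (LPS); red points are called, and the dashed blue line is where no change lies with library totals. Relative to the typical site, Maf has 6 PU.1 sites called higher and 0 lower (2 and 5 by library totals), and Fli1 has 7 JunB sites called lower and 0 higher (9 and 0 by library totals).

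JunB was tested at 155 of the 167 sites, the rest being under the filter on low values. In untreated KO cells 14 were higher and 9 lower (18.4% of all sites, 11.5% and 6.92%), and with LPS 20 were higher and 20 lower (23.2%, 13.3% and 9.89%). The precision-weight test called 8 without LPS (8.53% of all sites), 63 with LPS (32.6%) and, for LPS in WT cells, 66 (40.7%). By library totals the 1.5-fold counts were 3 and 19 without LPS (6.86% and 16.2% of all sites) and 11 and 32 with LPS (9.65% and 16.6%). Without replicate 1 of each group 14 were called untreated, in place of 23, and 31 for LPS in KO cells, in place of 60. With LPS against untreated, 46 were higher and 20 lower in WT cells (41.2%, 20.8% and 20.45%) and 35 higher and 25 lower in KO cells (40.8%, 19.8% and 20.95%). These counts are relative to a typical site that itself moved by 1.90 and 2.03 with library totals. By library totals 149 and 144 of the 155 sites were higher, against 94.0% and 90.8% of all sites. The share of reads in JunB sites was 6.91% to 7.51% in untreated WT libraries and 28.8% to 29.2% with LPS.

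Maf and Fli1 lay at opposite ends for JunB with LPS. Of 37 tested Maf sites 12 were higher and 2 lower in KO cells, with a median of 0.46, and of 15 tested Fli1 sites 0 were higher and 7 lower, with a median of -0.50, against -0.01 over all sites. By library totals 8 Maf sites were higher and 3 lower, and 0 Fli1 sites were higher and 9 lower. The Fli1 site at +20.1 kb (chr9:32328820-32329094), with none of the 3 motifs in its window, read 25.4 and 23.6 in WT against 7.61 and 11.8 in KO cells (-1.25 [-1.83 to -0.82]). At the Fli1 start JunB was higher in untreated KO cells, with 28 and 34.8 in WT against 62.3 and 40.5 in KO cells (0.69). With LPS it was lower there, with 19.6 and 17.4 in WT against 7.13 and 14.1 in KO cells (-0.75 [-1.27 to -0.26]), and -1.34 without replicate 2.

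Runx1 had 4 JunB sites higher and 9 lower with LPS of 48. At -42.9 kb of the proximal start (chr16:92740319-92740567), JunB read 63.8 and 62.3 in WT against 34.2 and 40.4 in KO cells with LPS (-0.74 [-1.02 to -0.48]), and 39.0 and 41.7 in WT against 12.1 and 35.5 in KO cells without it (-0.74). MED1 there read 28.9 and 23.2 in WT against 17.1 and 9.78 in KO cells with LPS (-0.90 [-1.70 to -0.27]), and the ATAC region over it was the one that lost accessibility between the starts. This site has an AP-1 match and no PU box, and no PU.1 site overlapped its ATAC region. At +43.3 kb (chr16:92654172-92654413), where the window holds all 3 motifs, JunB read 9.61 and 10.1 in WT against 3.33 and 2.35 in KO cells with LPS (-1.5 [-2.81 to -0.92]). The PU.1 ratio at +43.3 kb was -0.20 [-1.09 to 0.69], not called. This site and the overlapping ATAC region were chosen after their values were seen, and the ATAC region was lower in untreated KO cells (-0.33, adjusted p = 0.00327, limma). At Ets2, JunB was higher with LPS at 8 of 15 sites in WT cells and lower at 2, and between the genotypes with LPS 0 were higher and 1 lower (95 kb downstream, -0.88). At the Bhlhe40 promoter JunB was 41.5 and 40.3 in WT against 74.4 and 55.7 in KO cells without LPS (0.66 [0.15 to 1.23], or 0.35 by library totals), and did not differ by the call with LPS (0.10).

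MED1 with LPS was tested at 73 of 75 sites, with 12 higher and 4 lower in KO cells (12.0% of all sites, 7.44% higher and 4.56% lower), or 2 and 36 by library totals (0.768% and 61.6%). Among the 12 higher sites, those of Runx2 and Runx3 reached the filter on low values through the KO pair alone. So did the Maf sites at -58.3, -35.9 and +88.4 kb and the Ets2 site at +12.9 kb. The lower Maf site at +216 kb reached it through the WT pair alone. These counts, and the shares of all sites, are therefore descriptions set in part by the filter. Both sites that were higher by library totals belong to Maf, at -35.9 kb (1.05) and +88.4 kb (0.79, chosen after its values were seen). At both sites the KO pair reached the filter on low values and the WT pair did not. The +88.4 kb site held 12 and 11 reads in WT against 22 and 27 in KO cells. Limma with precision weights called 15 of the 73 (7.68% of all sites). Spi1 had 2 of 4 sites higher, the larger in intron 2 at +7.8 kb with 17.2 and 10.8 in WT against 46.8 and 25 in KO cells (1.30, or 0.56 by library totals). Its upstream domain of 12872 bases at -10.1 kb was under the 1.5-fold limit (0.27 [0.15 to 0.39], or -0.50 by library totals). At the Fli1 promoter MED1 read 162 and 134 in WT against 98.2 and 79.4 in KO cells (-0.73 [-1.02 to -0.47], or -1.5 by library totals). At Ets2 the site at +12.9 kb, in intron 7, read 10.9 and 6.18 in WT against 17.1 and 25 in KO cells (1.21, or 0.49 by library totals), while the taller one at +1.7 kb was not called (0.14). The site of Runx3 at -66.8 kb gave 0.95, and 0.01 without replicate 1. At this site and at the Ets2 site at +12.9 kb, too, the WT pair did not reach the filter.

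Pol2 with LPS was tested at 40 of 43 regions, with 15 higher and 6 lower in KO cells (40.2% of all regions, 21.96% and 18.3%), or 1 and 30 by library totals (2.64% and 88.5%). Among the 15 higher regions, the 4 of Runx3 and the 2 of Maf reached the filter on low values through the KO pair alone. These counts, too, are set in part by the filter. Limma with precision weights called 23 of the 40 (48.3% of all regions). Over Ets2, whose RNA was higher in KO cells, 5 of 6 regions were higher and 0 lower relative to the typical region, against 0 higher and 2 lower by library totals. The main region, 13498 bases long at +3.7 kb, read 592 and 567 in WT against 1305 and 1219 in KO cells (1.12 [1.03 to 1.22]), but -0.76 by library totals. The region at +15.7 kb, annotated to the last intron of Ets2, read 24.5 and 22.3 in WT against 127 and 93.4 in KO cells (2.19, or 0.34 by library totals). Over Fli1, whose RNA at 6 h was also higher in KO cells, Pol2 at 2 h was lower at 4 of 5 regions and higher at 0. At the Fli1 start it read 394 and 393 in WT against 129 and 149 in KO cells (-1.5 [-1.75 to -1.27], or -3.37 by library totals). At +25.5 kb in intron 1 it read 88.1 and 97.0 in WT against 31.9 and 20.8 in KO cells (-1.78, or -3.61 by library totals). The Fli1 ratios had the same sign under both scalings, and the ratio of the main Ets2 region did not.

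At the Maf promoter Pol2 was 9.51 and 9.04 in WT against 42.5 and 43.2 in KO cells after 2 h of LPS (2.09 [1.57 to 2.86], or 0.31 by library totals), while Maf RNA at 6 h was lower in KO cells. The MED1 ratio at that promoter was 0.43, not called. Over Runx1 the main region read 865 and 895 in WT against 864 and 896 in KO cells (-0.00 [-0.10 to 0.10], or -1.88 by library totals), with 3 of the 16 tested regions higher and 2 lower. The Spi1 region, 57572 bases from chr2:90896279 on, read 3787 and 3826 in WT against 5459 and 5321 in KO cells (0.50 [0.46 to 0.54]), under the 1.5-fold limit, and -1.38 by library totals. At the Runx2 start Pol2 read 60.5 and 58.5 in WT against 72.6 and 121 in KO cells (0.69, or -1.16 by library totals), and leaving out a replicate gave 0.26 to 1.04. The single region that was higher by library totals too lay beyond the end of Runx3, at +58.1 kb, with 12.0 and 6.66 in WT against 83.2 and 53.6 in KO cells (2.75 [2.30 to 3.48], or 0.94 by library totals). There and at the Maf promoter the KO pair reached the filter on low values and the WT pair did not. Bhlhe40 had no Pol2 region in the table.

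**Figure D4:**
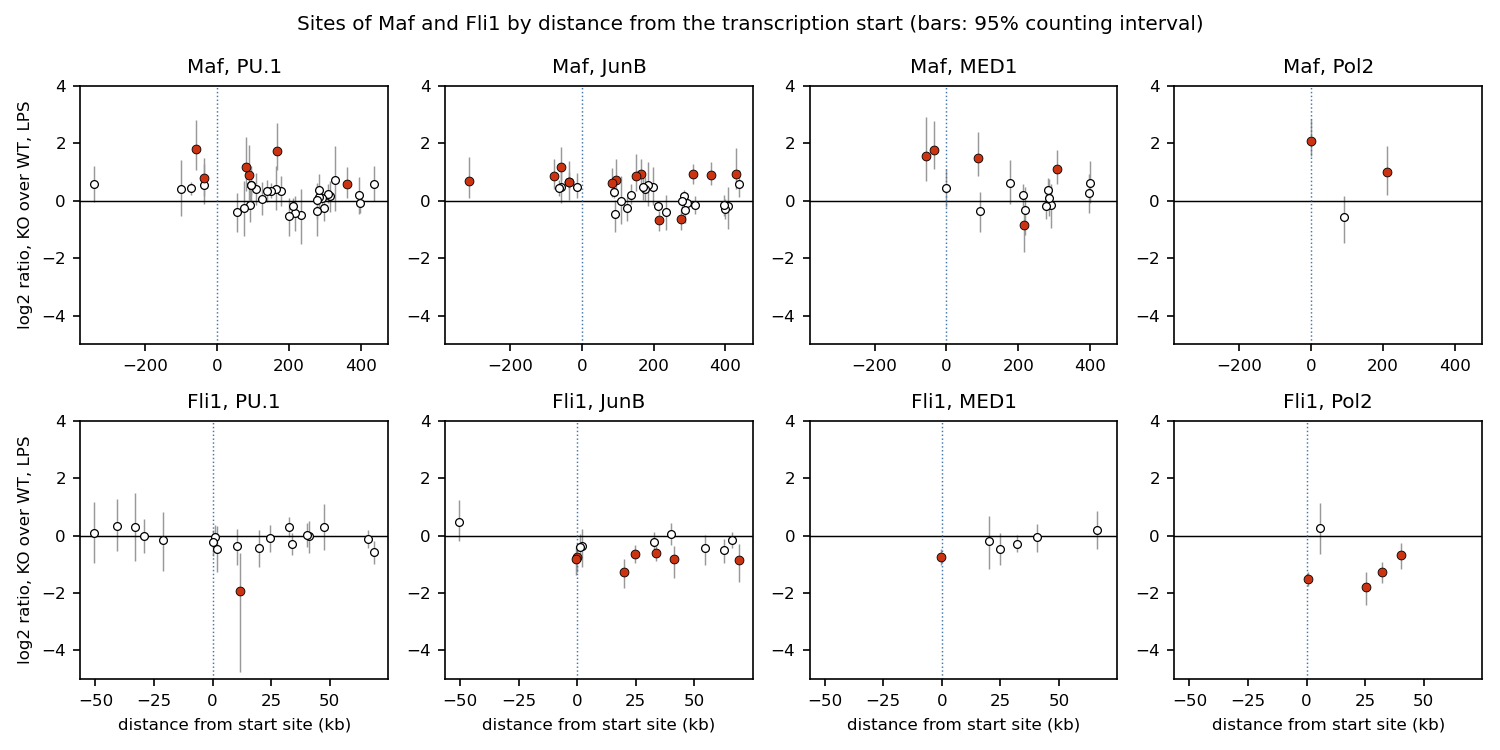
Log2 ratio of KO to WT with LPS at sites of Maf and Fli1 against distance from the start in kb (minus is upstream), for PU.1, JunB, MED1 and Pol2; bars are 95% counting intervals and red points are called. Relative to the typical site, JunB at Maf has 12 sites called higher and 2 lower (8 and 3 by library totals), and at Fli1 0 higher and 7 lower (0 and 9).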

How the data were processed

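Members and gene lists were chosen with earlier results of these data known. RNA and ChIP values were deposited by the authors as reads per 10000000 mapped reads, per the file headers; 100% of the low values (up to 200 reads, tolerance 0.05) were whole multiples of 1 read. ATAC values were deposited by the authors on a log2 scale, per the file headers, with a transformation not given in the sources used here, and the authors' deposited p-values there were not used. The submitters' processing notes name Bowtie2, HOMER, BWA, HISAT2, MACS2, DESeq2 and edgeR, without versions, and build mm9. Whether counting used strand is not given there.

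RNA and ChIP values were scaled by TMM. Genes and ChIP sites were kept if, in at least the number of libraries of the smallest group, they reached 10 reads at the median depth (5.79 per 10000000 in RNA), with a total of 15 reads or more. RNA was fitted as log2(value + 1) in all 16 libraries, and ATAC in its 6 libraries, with limma 3.58.1 (trend and robust moderation) in R 4.3.3, two-sided, Benjamini-Hochberg adjusted over all features. ChIP pairs were counted as 1 sample, with calls at 1.5-fold. Pools of reads give counting error only, and reads without molecular identifiers are not independent molecules. Scripts were tested on simulated data. The text names the 8 genes and up to 4 genes per list with the largest changes that passed. Sites were taken from those with, for each gene and table, the highest mean, the largest called change in each direction between genotypes and the place nearest the start, leaving out some; sites outside this rule are marked as chosen after their values were seen. Sites were assigned to genes by the authors' annotation. The replicate numbers do not pair the libraries. The files hold 8 columns of per-sample values that were not used, and 201 samples of the series were not analysed here. Sequences were read from the mm9 genome. The list of genes related to Maf is not reported here.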

Additional observations from a re-analysis of the deposited data

Results flagged for a closer look

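Spi1 RNA in WT cells with LPS was 7146 scaled reads in replicate 4, far from the other 3 (highest 5824, lowest 5579), its gap being 0.843 of the group's range. Of 32 groups of 4 libraries looked at in this way, chance marks about 1 in 20. The same library stood apart over all genes.

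The LPS response of some of the genes differed between KO and WT cells by the test of the difference itself (limma): Runx1 by -0.72, Maf by -2.96, Fli1 by 0.52 and Bhlhe40 by -1.66 on the log2 scale. Their p-values stand with each gene above. Runx3 was flagged as well, with a difference of 2.10. It was above the filter on low values only in untreated WT libraries, so its difference rests on a few reads in the other groups and is not counted as passing.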

How the results depend on the processing

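Of 992 values of single genes under other settings, 944 kept direction and side of the threshold, 26 lost the call, 20 gained it and 2 reversed, both with library totals: Runx1 with LPS in WT (-0.26) and the Ets2 difference of responses (0.0027). The next counts are over all 8 genes and so include Runx2 and Runx3, which the counts of the 6 genes above leave out. RNA counts out of 8 ranged, leaving out 1 library, over 5 to 8 (KO against WT untreated), 8 to 8 (LPS), 7 to 8 (LPS in WT), 7 to 8 (LPS in KO) and 4 to 8 (difference), the last being 8 with array weights. Of 80 values of named ATAC regions 58 kept their call and 22 lost it, at the regions given above. Of 335 values of named ChIP sites 317 stayed within their 95% counting interval, 16 moved and 2 reversed. ATAC calls (20) fell to 7 without a trend and to 8 to 15 leaving out 1 library. PU.1 calls, in the order KO against WT untreated (12), the same with LPS (19), LPS in WT (29) and LPS in KO (40), were 4, 6, 12 and 12 at 2-fold. With library totals the first 3 were 59, 38 and 73, and within 100 kb of the start the first was 7, the third 19 and the fourth 24. Leaving out a replicate gave 7 to 17, 8 to 9, 20 to 26 and 25 to 29, and limma with precision weights on the recovered reads, added after seeing the data, gave 9 for the second. JunB calls in the same order (23, 40, 66, 60) were 9, 4 and 42 at 2-fold for the first 3, 149 and 144 with library totals for the LPS responses, 15 within 100 kb for the first, 26 for the second with a pseudocount of 4, and 14 to 17, 31 to 33, 47 to 53 and 31 to 43 leaving out a replicate. Precision weights gave 8 and 63 for the first pair. MED1 (16) had 38 with library totals, 8 at 2-fold and 12 to 14 leaving out a replicate, and Pol2 (21) 19 in both cases of the latter. With library totals the Pol2 ratios of Ets2 at +3.7 kb (-0.76) and of Runx2 at +0.1 kb (-1.16) reversed. Each cause was not tested, beyond the lower counts that a stricter fold gives by construction. Leaving out a library lowered some counts and raised others.

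Same-numbered libraries did not deviate together (correlations of -0.365 to 0.21 over 24 RNA pairs, -0.00501 to -0.00101 over 3 ATAC pairs). With the replicate block the untreated RNA count over all 8 genes, Runx2 and Runx3 included, stayed at 6. Runx1 lost its call there (adjusted p = 0.053, limma) and Bhlhe40 gained one (0.045), and the Fli1 difference lost its call (0.076). With precision weights and the replicate block PU.1 with LPS had 9 calls and JunB untreated 12. The planned edgeR and DESeq2 fits were not run, since the deposited values are not counts. Depth limits Runx2 with LPS and Runx3 in KO cells, where a library holds a few reads.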
